A study of Homo sapiens with 2 samples.

Results

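Angiogenic ligands and neuropilins were followed in Huh7, an established human hepatocellular carcinoma cell line. The set held 10 genes: VEGFA, VEGFB, VEGFC, PGF, ANGPT1, ANGPTL4, FGF2 and EDN1, which encode secreted factors, and NRP1 and NRP2, which encode the neuropilin receptors. Every array probe that the platform annotation assigns to 1 of these genes was taken, 22 probes in all. Of these, 16 probes carried a value on both arrays, out of 19665 such probes on the platform, and they represented 9 of the 10 genes. The remaining 6 probes, among them the only VEGFC probe, carried no value on either array, so VEGFC has no measurement here.

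One group of the study was Huh7 cells infected with a lentiviral vector, and the other was Huh7 cells infected with a lentivirus for shCD133, a short hairpin RNA against CD133. PROM1 encodes CD133, a surface glycoprotein used to mark stem-like tumour cells. Both cultures were grown in the same serum-containing medium, and each group was read on 1 array. The hairpin sequence, the time after infection and whether the infected cells were a pool or a clone are not given in the sources used here. With 1 array per group there is no replicate error and no test, and all values below describe these 2 arrays. In RNA from a whole culture, fewer cells carrying a transcript and less of it per cell cannot be told apart.

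VEGFA, VEGFB and PGF are related dimeric ligands that bind tyrosine kinase receptors of endothelial cells, and VEGFC is the relative best known for lymphatic vessels. Neuropilins are transmembrane co-receptors that bind members of the VEGF family and class 3 semaphorins and present them to VEGF receptors or plexins. ANGPT1 is the agonist of the endothelial receptor TIE2, which steadies mature vessels, whereas the similarly named ANGPTL4 is a secreted inhibitor of lipoprotein lipase that also acts on vessels. FGF2 is a heparin-binding growth factor, and EDN1 is the precursor of the vasoconstrictor peptide endothelin-1. Hepatocellular carcinomas are vascular tumours, and hepatoma cells secrete several of these factors.

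Values are log2 intensities deposited by the authors, and each difference was formed by subtracting the vector log2 value from the shCD133 log2 value. The values ran from 6.65 to 15.61, the median was 8.66 on each array, and 25% of all values lay under 7.61. PROM1 itself, on its only probe with a value, was at 13.58 with vector and at 10.83 with shCD133, that is at 14.9% of the vector intensity. Probes of the same gene disagreed with an SD of the difference of 0.34 (6533 probes of 2907 genes). This is the only error available, and it says nothing of the spread between cultures. The median difference over all 19665 probes was 0.10, and 60.0% of probes lay above 0. Among hepatocyte markers, 6 of 8 had a value, from 11.65 to 15.48 with vector and from 11.99 to 15.47 with shCD133. Of 10 endothelial markers only PECAM1 and ESAM had a value, with a summed unlogged intensity of 1080 with vector and 894 with shCD133, and CDH5, VWF, KDR, TEK, TIE1, ROBO4, CLDN5 and ERG had none on either array. Fibroblast and mural markers had a value for 5 of 8 genes, from 7.22 to 13.46 with vector and from 7.25 to 13.45 with shCD133, the brightest being LUM (13.46 and 13.45) and COL1A2 (11.55 and 12.50), and COL3A1, ACTA2 and RGS5 had none. Leukocyte markers had a value for 3 of 7, while PTPRC, CSF1R and CD3E had none. The brighter LYZ probe read 12.81 and 12.64, but the other LYZ probe differed by 1.51, past 2-fold. CD68 read 9.62 and 9.53 on its brightest probe, and CD14 read 8.32 and 9.92, past 2-fold. The part of other cell types in the differences below was not tested.

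The sequences upstream of 3 members are shown as examples and do not represent the set. VEGFB and ANGPTL4 were higher with shCD133 on each probe with a value, short of 2-fold. FGF2 was at least 2-fold lower on its only measured probe, which was dim. The sequences are from RefSeq GRCh38.p14, all on the plus strand, written 5′ to 3′. For VEGFB (chr11:64234334-64234583) and ANGPTL4 (chr19:8363905-8364154) they are the 250 bases before the annotated start. For FGF2 (chr4:122826581-122826681) they are the 101 bases of that window that lie before the gene's annotated span. Capitals mark matches, on either strand, to the GC box GGGCGG, the hypoxia response core ACGTG and the TATA box TATAAA.
VEGFB: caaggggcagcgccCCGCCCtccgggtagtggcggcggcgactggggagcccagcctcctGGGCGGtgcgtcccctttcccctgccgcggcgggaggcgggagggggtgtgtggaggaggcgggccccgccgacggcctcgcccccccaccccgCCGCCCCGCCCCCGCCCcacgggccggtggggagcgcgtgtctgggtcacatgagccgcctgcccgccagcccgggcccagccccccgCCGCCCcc
ANGPTL4: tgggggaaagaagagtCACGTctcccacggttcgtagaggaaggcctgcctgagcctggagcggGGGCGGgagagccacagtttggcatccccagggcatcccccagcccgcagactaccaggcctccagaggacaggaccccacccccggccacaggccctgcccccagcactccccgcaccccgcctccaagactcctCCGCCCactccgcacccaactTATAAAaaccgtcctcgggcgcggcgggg
FGF2: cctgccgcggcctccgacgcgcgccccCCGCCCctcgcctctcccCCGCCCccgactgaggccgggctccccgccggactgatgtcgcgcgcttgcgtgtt

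In the full 250-base windows VEGFB held 6 GC boxes, some of them adjoining or overlapping by a base, against 3 in FGF2 and 2 in ANGPTL4. A GC box is present in 42.6% of the 35116 RefSeq windows of that length. ANGPTL4 also held 1 hypoxia response core, 234 bases before the start, and 1 TATA box, 29 bases before it. The hypoxia response core is the short element that hypoxia-inducible factors bind, and 18.5% of all windows contain it. A window was also given for VEGFC, PGF, EDN1 and NRP2. No window was used for VEGFA, NRP1 or ANGPT1, so the motif matches do not cover these genes. EDN1 has 3 annotated starts with windows. The most downstream held a hypoxia response core 123 bases before it and a TATA box 31 bases before it. The most upstream held 2 hypoxia response cores, 93 and 240 bases before it, and 1 GC box, and the middle window held no match. The palindrome TTCNNNGAA, which STAT factors can bind, and the AP-1 element TGACTCA were in none of the 10 windows of these 7 genes, compared with 6.57% and 4.20% of all windows. These matches describe letters in a window and show no binding.

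The measured VEGF ligands were all brighter in the shCD133 array as deposited, PGF only until a trend on mean level or gene length was removed, and none reached 2-fold. VEGFA, the principal inducer of vessel growth, read 8.62 with vector and 9.25 with shCD133 on its brighter probe (ILMN_2375879), a difference of 0.62 or 1.54-fold. Its other probe (ILMN_1803882) read 8.0 and 8.51, a difference of 0.52. The VEGFA probes thus differed in the same direction and to a like extent, by 1.82 and 1.51 times the probe SD. Among all probes on the arrays these differences stood at the 91.3 and 86.4 percentiles. The gene lies at chr6:43770211-43786487 in GRCh38.p14, the build of all positions given here.

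VEGFB, a ligand that binds FLT1 and is linked to fatty acid handling in mouse tissues, read 11.95 with vector and 12.48 with shCD133 on its brighter probe (ILMN_1726981), a difference of 0.53. On the dimmer probe (ILMN_1722855) it read 8.67 and 9.45, a difference of 0.78, which is the highest among the 16 probes. Both VEGFB probes cite the same transcript record, NM_003377, of the gene at chr11:64234584-64239264, and both were brighter with shCD133. PGF (chr14:74941830-74955764), placental growth factor, is another ligand of FLT1. Its single probe (ILMN_1809813) read 9.04 with vector and 9.22 with shCD133, a difference of 0.18, smaller than the probe SD and at the 57.6 percentile of all probes. The PGF difference was -0.06 with the trend on mean level or on gene length removed, so it has no stable direction.

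**Figure D1:**
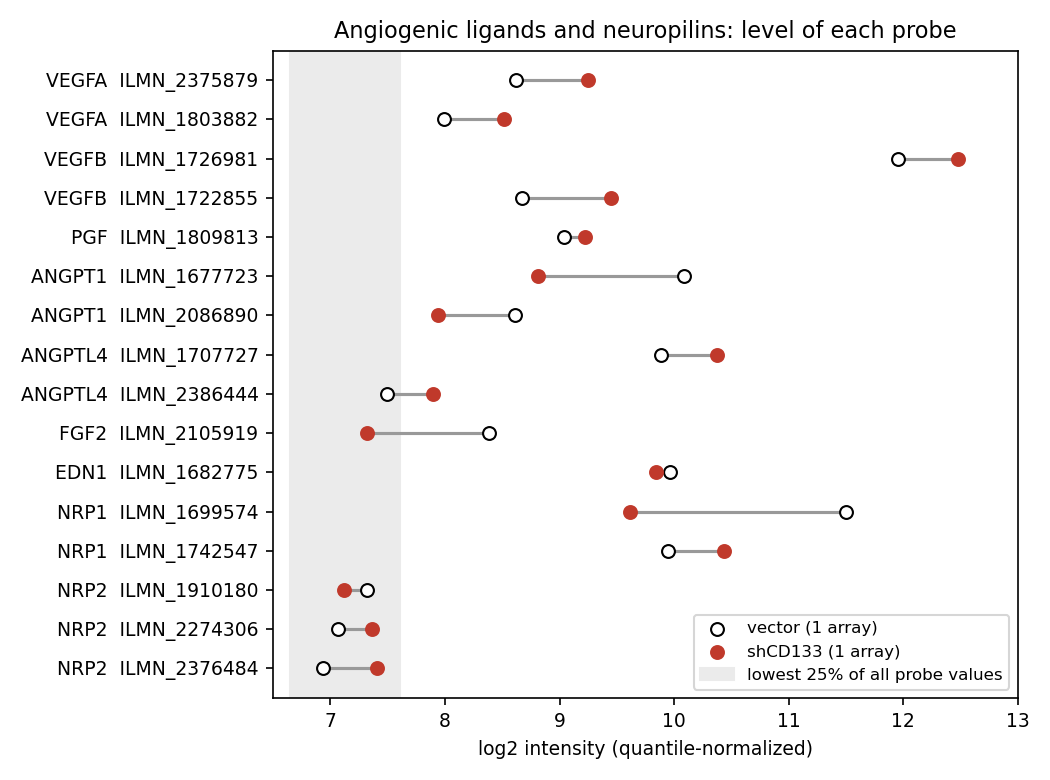
Log2 intensity (horizontal axis) of each of the 16 probes with a value, named by gene and probe. Open circles are the vector array, filled circles the shCD133 array, 1 array each, and the grey band is the lowest 25% of all probe values. The NRP1 probes move in opposite directions, from 11.50 to 9.62 and from 9.95 to 10.43, and all NRP2 values lie inside the band.

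ANGPT1 was lower with shCD133 on both probes, although only the brighter passed 2-fold. The brighter probe (ILMN_1677723) read 10.09 with vector and 8.81 with shCD133, a difference of -1.27, so that the shCD133 intensity was 41.4% of the vector intensity. The dimmer probe (ILMN_2086890) read 8.61 and 7.94, a difference of -0.67, with 62.8% of the vector intensity. Both probes cite the record NM_001146 of the gene at chr8:107249482-107497918. In units of the probe SD the differences were -3.71 and -1.96, at the 4.23 and 12.2 percentiles of all probes. The mean over both probes was -0.97, just short of 2-fold.

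ANGPTL4 (chr19:8364155-8374370), whose product restrains lipoprotein lipase, went the other way on both measured probes. The probe of record NM_139314 (ILMN_1707727) read 9.89 with vector and 10.37 with shCD133, a difference of 0.48. The probe of record NM_001039667 (ILMN_2386444) read 7.49 and 7.89, a difference of 0.40. The dimmer pair lay close to the lower end of the scale, where differences are compressed, and subtracting background moved it to 0.68. Both ANGPT1 probes thus lay below 0 and both measured ANGPTL4 probes above it, where 60.0% of all probes lay above 0.

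FGF2 (chr4:122826682-122898236) was measured by 1 probe (ILMN_2105919), which read 8.39 with vector and 7.32 with shCD133. The difference was -1.07, and the shCD133 intensity was 47.6% of the vector intensity. The shCD133 value lay among the lowest 25% of values, where signal was not told from background. With background subtracted the FGF2 difference was -1.74, and the probe was among those left out when a mean level of at least 8 was required. A second FGF2 probe carried no value.

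EDN1 (chr6:12230516-12297194) was nearly level between the arrays. Its single probe (ILMN_1682775) read 9.97 with vector and 9.84 with shCD133. The difference of -0.12 amounted to 0.36 probe SDs in size, and 30.6% of all probes lay at or below it.

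NRP1 (chr10:33177493-33334667) gave the widest contrast of the set, within a single gene. The probe of record NM_003873 (ILMN_1699574), the transcript for the full-length membrane co-receptor, read 11.50 with vector and 9.62 with shCD133. That difference was -1.89, or 3.70-fold lower, and only 203 of the 19665 probes lay below it. The probe of record NM_001024629 (ILMN_1742547), a transcript for a shorter, secreted form that lacks the membrane anchor, read 9.95 and 10.43. It was 0.48 higher with shCD133, at the 84.2 percentile of all probes. The gap between their differences was 2.37, and all NRP1 values lay between 9.62 and 11.50. Across 2907 genes with more than 1 measured probe the median gap was 0.23 and the 95th percentile 1.17, and 10 genes, NRP1 included, had a gap of 2.37 or more. Of 384 such genes with a probe at least 2-fold lower, 63 (16.4%) also had a probe above 0.

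The NRP1 gap shows unequal change of the signals of these probes. Where each probe lies in the transcripts was not analysed here, so how far either one separates the membrane form from the secreted form is not known. The NM_003873 probe was between -2.08 and -1.62, and the NM_001024629 probe between 0.27 and 0.75, with the differences centred, with the trend on mean level or on gene length removed and with background subtracted. Centring and the length bins shift a probe by less than the probe SD, so those settings could not have reversed either sign. Averaged over its probes, NRP1 differed by -0.70 and did not pass 2-fold.

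NRP2 (chr2:205682501-205798131), the paralogue used mainly with VEGFC and semaphorin 3F in lymphatic and neural tissue, was dim throughout. The probe of the cDNA record AK024680 (ILMN_1910180) read 7.32 with vector and 7.12 with shCD133, a difference of -0.20. The probe of NM_201264 (ILMN_2274306) read 7.07 and 7.36, a difference of 0.30, and that of NM_018534 (ILMN_2376484) read 6.94 and 7.40, a difference of 0.47. All NRP2 values lay among the lowest 25% of values, and 1 probe went down while 2 went up. The brightest probe leads the next by 0.001 in mean level, so the sign given to NRP2 as a gene rests on the probe chosen, and it was 0.19 when probes were averaged. With background subtracted the NM_018534 probe reached 1.16.

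Over the 16 probes, 3 passed 2-fold on the lower side and none on the higher side, with 6 below 0 and 10 above. Of all probes with a value, 6.82% passed 2-fold on the lower side and 1.7% on the higher side. The 3 lower probes were those of NRP1 (NM_003873), ANGPT1 and FGF2, each a different gene. Counted as genes by the brightest probe, the same 3 of 9 were at least 2-fold lower, where 8.26% of 11579 named genes were lower and 2.08% higher. At 1.5-fold 4 member probes were lower and 2 higher, where 14% and 10.4% of all probes were, and 3 member genes were lower and 1, VEGFA, higher, where 16.3% and 12.3% of named genes were. A count of 3 in a set this small, chosen with results of these data known, has no test beside it. The median member gene differed by -0.12 and the median named gene by 0.11, and with the mean over probes the member median was 0.18. Of the 6 genes with more than 1 measured probe, 4 had all probes on 1 side of 0: VEGFA, VEGFB and ANGPTL4 above and ANGPT1 below. NRP1 and NRP2 were divided.

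**Figure D2:**
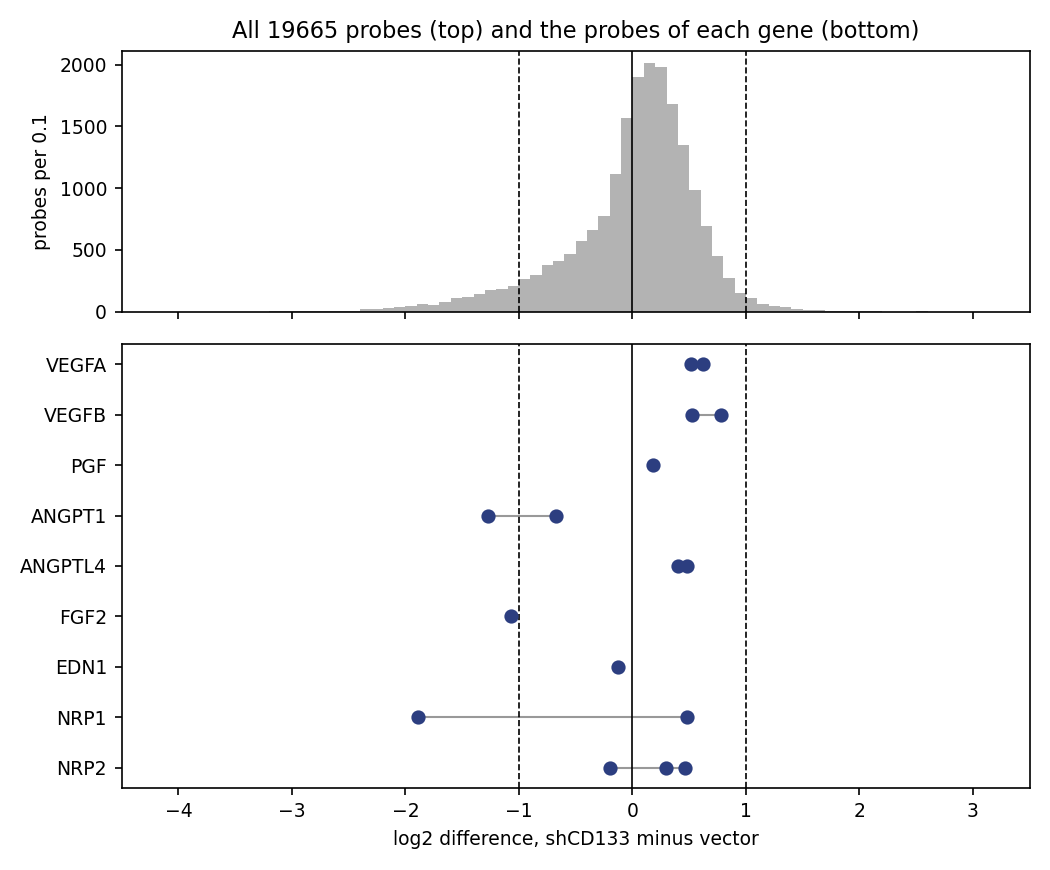
The top panel counts all 19665 probes by log2 difference, shCD133 minus vector, in steps of 0.1, and the bottom panel shows each probe of the 9 measured genes on the same axis, joined by a line within a gene. Dashed lines mark 2-fold. The 3 probes past the lower line belong to ANGPT1, FGF2 and NRP1, and the line for NRP1 spans 2.37.

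Gene length moved with these differences, in the set and over the arrays as a whole. The 4 members shorter than the median named gene (27.5 kb) were VEGFB (4.68 kb), ANGPTL4 (10.2 kb), PGF (13.9 kb) and VEGFA (16.3 kb), and all 4 were above 0 by the brightest probe, PGF not after removal of a trend. The 5 longer members were EDN1 (66.7 kb), FGF2 (71.6 kb), NRP2 (115.6 kb), NRP1 (157.2 kb) and ANGPT1 (248.4 kb), and all 5 were below 0 by the brightest probe, NRP2 not when its probes were averaged. Among all named genes 73.0% of the shorter and 45.5% of the longer lay above 0, and 2.83% of the shorter and 13.7% of the longer were at least 2-fold lower. With the named genes split by span into 10 bins of equal size, the bin of the longest held NRP1 and ANGPT1. In that bin 22.0% were at least 2-fold lower, and the lower quartile was -0.92. In the bin with FGF2 and EDN1 12.4% were.

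The division by length is not complete at the level of probes, since 1 NRP1 probe and 2 NRP2 probes lay above 0. The EDN1 span counts distant upstream starts, and from its most downstream start with a window the gene is 6.83 kb long. By that length EDN1 would be a shorter member below 0. The division of the genes, and the length bin used for EDN1, therefore depend on the span taken. When the median difference of each gene's length bin was subtracted, NRP1 (-1.62), ANGPT1 (-1.01) and FGF2 (-1.002) still passed 2-fold, FGF2 and ANGPT1 barely. VEGFA was then at 0.38, VEGFB at 0.27 and ANGPTL4 at 0.24, with VEGFB and ANGPTL4 under the probe SD of 0.34. The other probes of these genes were then at 0.28 (VEGFA), 0.52 (VEGFB) and 0.15 (ANGPTL4). The part of length in these differences was not otherwise tested.

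**Figure D3:**
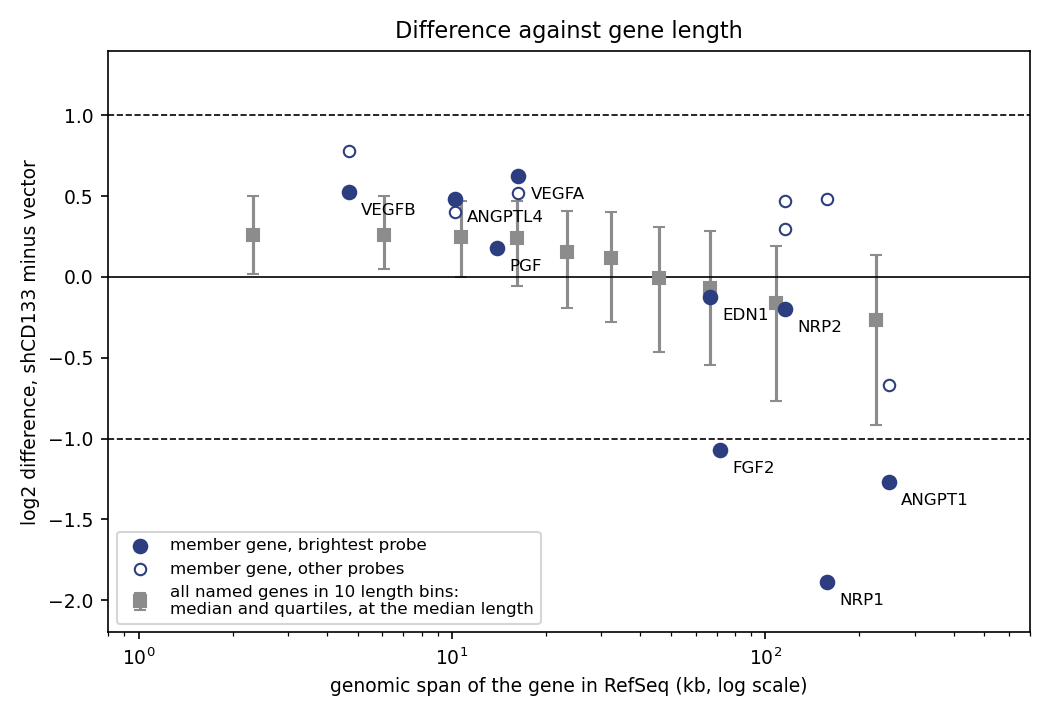
Log2 difference, shCD133 minus vector, against the genomic span of the gene in kb on a log scale. Filled circles are the brightest probe of each of the 9 members, open circles their other probes, and grey squares with bars the median and quartiles of all named genes in 10 length bins. The brightest probes of NRP1, ANGPT1 and FGF2 lie below the lower quartile of their bin, and those of VEGFA, VEGFB and ANGPTL4 lie above the upper quartile, as do the other probes of VEGFA, VEGFB, NRP1 and NRP2.

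Genes around the set were taken from 9 lists of receptors, partners, related ligands, inhibitors and regulators, with 88 of 159 genes measured. Of the measured genes 7 (7.95%) passed 2-fold downward and 4 (4.55%) upward, beside 8.26% and 2.08% of all named genes. The VEGF receptor genes FLT1, KDR and FLT4 had no value on either array, nor did the angiopoietin receptor genes TEK and TIE1. Of the angiopoietins and their relatives only ANGPT2, the context-dependent antagonist of ANGPT1, had a value, at 7.39 with vector and 6.91 with shCD133, a difference of -0.48 near the lower end of the scale.

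The semaphorin and plexin list, which is not confined to partners of neuropilins, had 11 of 18 genes measured. Of these, 3 passed 2-fold downward and none upward, and the median was 0.11. SEMA3A, the ligand that collapses axonal growth cones through NRP1, read 10.04 with vector and 8.24 with shCD133, a difference of -1.80. PLXNC1 differed by -1.11 and SEMA3E, a ligand of plexin D1, by -1.02. SEMA3A spans 536.9 kb, PLXNC1 159.1 kb and SEMA3E 285.9 kb, all in the bin of longest genes.

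FGF ligands, receptors and co-receptors had 14 of 32 genes measured and a median of 0.07. FGF11, an intracellular member of the family, was higher by 1.39, from 7.66 to 9.05, and KLB, the co-receptor for endocrine FGFs in hepatocytes, was lower, from 10.67 to 9.44, a difference of -1.23. In the endothelin system 2 of 7 genes were measured and neither passed 2-fold: the receptor gene EDNRB differed by 0.93 from a start of 7.29, near the lower end of the scale, and the converting enzyme gene ECE2 by 0.61.

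Among 19 measured genes of 27 other angiogenic ligands none passed 2-fold, and the median was -0.09. The largest differences were those of EFNA1 (0.89), SPP1 (-0.79) and KITLG (-0.71). Angiogenesis inhibitors had 12 of 21 genes measured and a median of 0.00. THBS1, thrombospondin-1, read 11.83 with vector and 9.72 with shCD133, a difference of -2.11, and CXCL10, an interferon-induced chemokine that restrains vessel growth, was higher by 2.13. Regulators of VEGFA transcription and mRNA had 20 of 23 genes measured and a median of 0.22. There the GC-box factor SP1 read 9.05 and 7.82, a difference of -1.23, and TFAP2A was higher by 1.02 from a dim 7.02. Genes for processing and release of ligands had 9 of 17 measured and a median of 0.36. PLAU, the urokinase that activates plasminogen, was higher by 1.32 from 7.51, and CCBE1, which is needed for maturation of VEGFC, was lower, with a difference of -1.12. Of the other related genes past 2-fold downward, THBS1 spans 18.4 kb, SP1 36.3 kb, KLB 44.6 kb and CCBE1 266.8 kb.

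**Figure D4:**
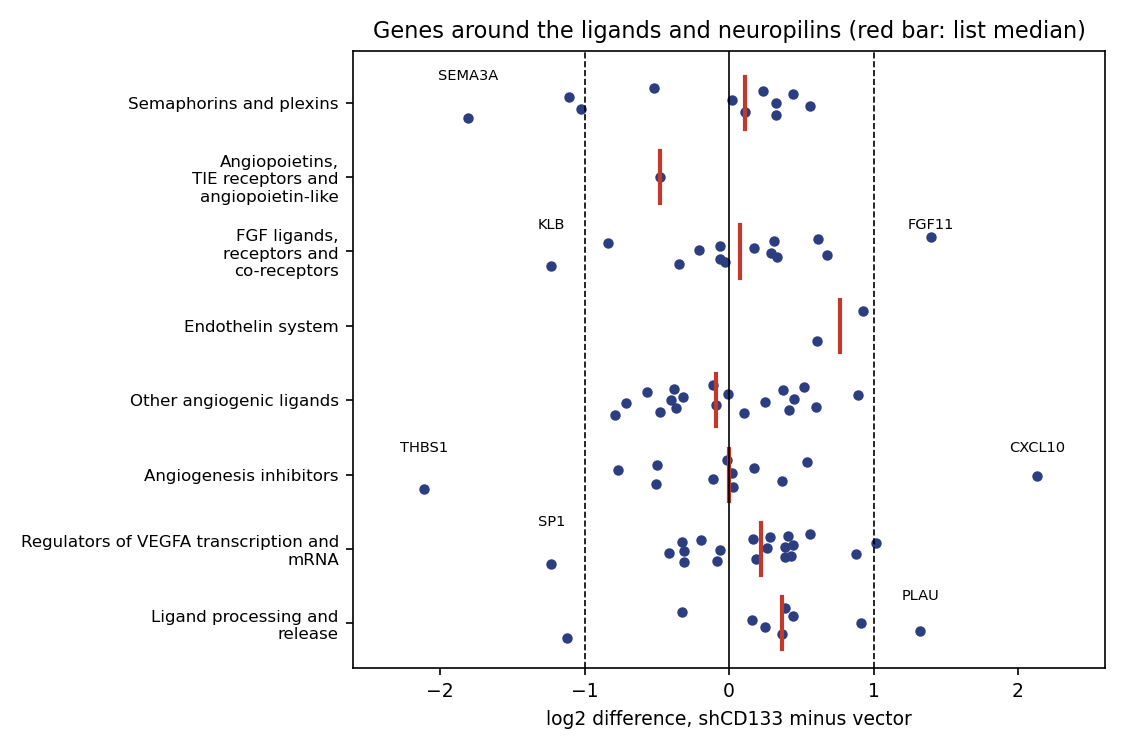
Log2 difference, shCD133 minus vector, of each measured gene in the 8 related lists with a value, by its brightest probe. Points are genes spread vertically for legibility, red bars are list medians and dashed lines mark 2-fold. SEMA3A (-1.80) and THBS1 (-2.11) lie farthest to the left and CXCL10 (2.13) farthest to the right.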

How the data were processed

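Total RNA of 2 Huh7 cultures was amplified into biotin-labelled cRNA and read on an Illumina bead array, per the labels' protocols. The authors deposited log2 values for 47323 probes, 41.6% of them with a value. The log base was read as 2 from the range. Rank by rank, the 2 arrays held values no more than 0.00044 apart, as after quantile normalization. GenomeStudio 2011.1 is named in the submitters' processing notes with no role. Background treatment and the filter behind missing values are not given in the sources used here. A table with 4 value columns whose names match no sample label was not used, so no detection calls were available.

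Probes were named from a platform annotation of 2016, updated by gene identifier to RefSeq GRCh38.p14 (15197 of 15205 probes with 1 symbol matched, 2 had several symbols and 4458 none). A gene took its probe with the highest mean level. Genes were called at 2-fold, a log2 difference of 1, without a test. Trends were removed by lowess (fraction 0.3) on mean level or by the median of 10 length bins, and background by subtracting the lowest unlogged value and adding 16. The probe SD, the lowess trend on mean level and the recovery of large inserted differences were tested on simulated data. Named genes were all members, PROM1, and, in each related list, every gene past 2-fold or otherwise up to 3 with the largest difference. Members, lists and motifs were chosen with earlier results of these data known. Python 3.11.15, pandas 2.3.3, numpy 2.4.6, statsmodels 0.14.6 and matplotlib 3.10.9 were used. Precision is limited by the number of arrays.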

Additional observations from a re-analysis of the deposited data

How the results depend on the processing

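No paired analysis was possible because each group has 1 array. Centring, removal of the trend on mean level or on gene length and background subtraction each left 3 member probes at least 2-fold lower, and a mean level of at least 8 left 2. No member probe was at least 2-fold higher except with background subtracted (1, of NRP2), and at a 1.5-fold threshold there were 2 higher (background 10.4% of probes) and 4 lower (14%). With the mean over probes 1 member gene, FGF2, was at least 2-fold lower in place of 3. By the brightest probe and at 1.5-fold, 1 gene, VEGFA, was higher. The related lists gave 12 higher and 11 lower genes at 1.5-fold, of 88 measured, against 4 and 7 at 2-fold, where 12.3% and 16.3% of all named genes passed 1.5-fold upward and downward. Of 64 recomputed probe differences 61 moved by less than the probe SD of 0.34, but for most of them this was fixed beforehand. Centring shifted every probe by 0.10, and the length-bin medians ran only from -0.26 to 0.26. The count of 61 is therefore no measure of stability. The 3 that moved more were dim probes of FGF2 (-1.74) and NRP2 (0.69 and 1.16), all with background subtracted. Averaging probes moved NRP1 to -0.70 and NRP2 to 0.19. Signal near background limits FGF2 and NRP2, and 1 array per group limits every value.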
